A study of Mus musculus with 13 samples.

Results

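Mammary tumors that had regrown under the HSP90 inhibitor 17-DMAG were compared with mammary tumors that had never met the drug. The comparison took all 5 recurrent and all 6 primary tumors as the sample labels name them, 11 of the 13 libraries of the series, and left out 2 mammary glands. It asked which genes differed in recurrent tumors whether or not the mice drank stavudine (STV), a nucleoside inhibitor of reverse transcriptase, so STV in the water was a term in the model.

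All tumors came from female FVB/N-TgN (MMTV-HER2/neu) 202Mul mice (laboratory code J), which carry rat HER2/Neu cDNA driven in mammary epithelium by the promoter of mouse mammary tumor virus. The genotype field of the labels reads wild type for every sample, although the strain carries the transgene. Of the primary tumors, 3 were from untreated mice and 3 from mice given STV at 1 mg/mL in drinking water. Of the recurrent tumors, 3 regrew in mice injected with 17-DMAG at 20 mg/kg and 2 in mice given both agents. STV began at 2 months of age or when primary tumors had appeared. The labels do not say which start applied to which tumor, nor the age of a mouse at collection. The study's supplement describes the primary STV tumors as having developed in STV-treated mice, so the open start concerns the 2 recurrent tumors with STV. The start of STV may therefore differ between recurrent and primary tumors. Per the study's methods, 17-DMAG was continued while the tumors regrew. Regrowth, the drug itself and the age of the mice and of the tumor therefore cannot be told apart here. The labels describe single tumors and do not say whether 2 tumors could share a mouse, so p-values measure the spread between these tumors.

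HSP90 is a chaperone that keeps kinases such as HER2 in a stable, active fold. Its inhibition releases the transcription factor HSF1, which drives genes of heat shock proteins, and many client proteins are degraded. NQO1, a quinone reductase, reduces benzoquinone ansamycins such as 17-DMAG to hydroquinones that bind HSP90 more tightly, and the efflux pump P-glycoprotein, encoded in mice by Abcb1a and Abcb1b, can export drugs of this class.

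Total RNA depleted of ribosomal RNA was sequenced. The total of a tumor library lay between 39921388 and 49484412 counts, so the detection floor of 3 counts stood at 0.0606 to 0.0751 counts per 1000000 (CPM), and such limits cover counting error only. Among counts of 1 to 20, between 71.9% and 75.7% were even in a tumor, against 48.7% to 50.8% among counts of 1000 or more, as when both reads of a pair are counted. Counts near the floor may therefore stand for fewer molecules than their number. Skeletal muscle genes took from 0.00179% to 0.601% of the counts and milk protein genes 0.524% to 2.61%, with no separation of recurrent from primary tumors in either.

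Some tumors stood apart. Recurrent 17-DMAG tumor 1 had the lowest rank correlations with the other tumors (Spearman's rho 0.915 to 0.956 across genes, which are not independent replicates). The median gene of every chromosome was displaced in it by more than 0.1 on the log2 scale, upward on 7 and downward on 13 of 20 chromosomes. Primary untreated tumor 2 had chromosome 4 at -0.77. DNA was not measured, and the part of these displacements in the results below was not tested beyond leaving the tumors out. Values of recurrent tumors are given below with the 3 tumors from mice without STV first (1, 2, 3) and the 2 from mice with STV after them (1, 2). For the 6 primary tumors the lowest, median and highest values are given. CPM values are counts scaled by library total and by the trimmed mean of M-values (TMM) factor.

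**Figure D1:**
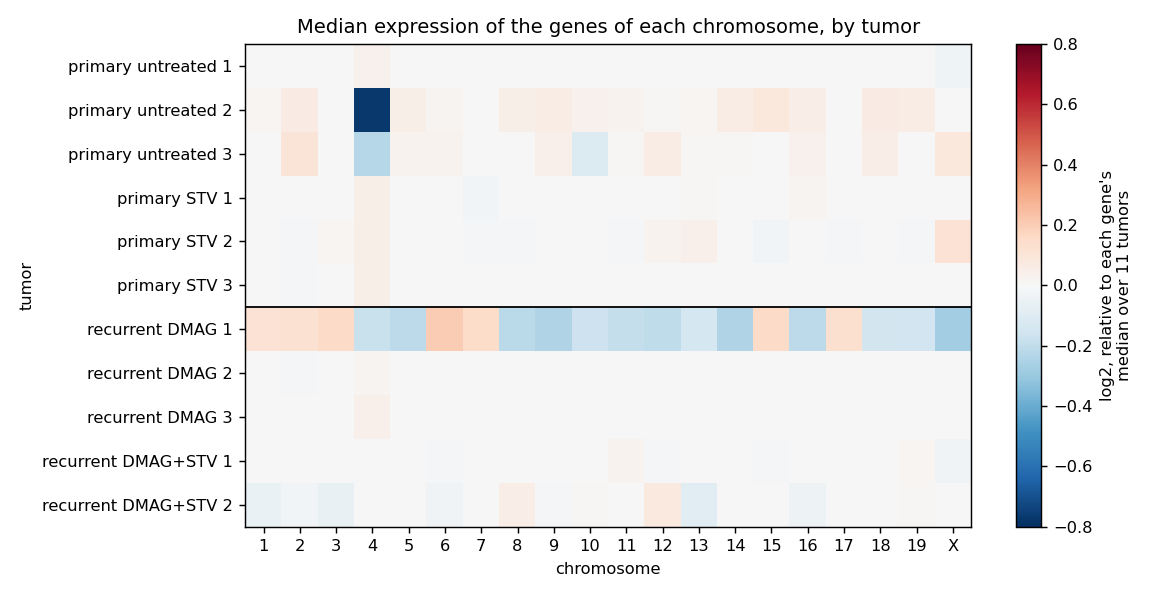
Median expression of each chromosome in each tumor. Columns are chromosomes, the lines of the grid are the 11 tumors (primary above the black line, recurrent below), and color gives the median, over genes whose log2 CPM averaged 3 or more, of log2(CPM + 0.5) minus each gene's own median over the tumors. Primary untreated tumor 2 stands out on chromosome 4 (-0.77), primary untreated tumor 3 less so on the same chromosome (-0.23), and recurrent 17-DMAG tumor 1 is displaced on all 20 chromosomes shown.

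No gene passed an adjusted p of 0.05 between recurrent and primary tumors. In edgeR's quasi-likelihood test with Benjamini-Hochberg adjustment, 0 of 16870 genes were called (0%), and the smallest adjusted p was 0.301. At an unadjusted p under 0.05 there were 2295 genes (13.6%), of which 1315 were higher in recurrent tumors (7.79% of genes tested) and 980 lower (5.81%). DESeq2, the tool named in the study's methods, was run with the same term for STV. It called 367 of the 16641 genes for which it gave an unadjusted p, 234 higher (1.41%) and 133 lower (0.799%). All 367 had an unadjusted p under 0.05 in edgeR. The median fold change over all genes was 0.00 on the log2 scale and the biological coefficient of variation was 0.415. The differences below are therefore descriptions of these 11 tumors, with the edgeR value given throughout. In bulk tumors, fewer cells of a type and less RNA per cell cannot be told apart.

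The CPM ranges of the 5 recurrent and 6 primary tumors did not overlap for 105 genes higher in recurrent tumors (0.622% of genes tested) and 126 lower (0.747%). Of these, 88 higher and 115 lower genes averaged 1 or more in log2 CPM and had the same sign with and without STV, and the 12 in each direction with the smallest p are described here. Absence of overlap is how these 24 genes were chosen. Their adjusted p was 0.302 in each case. DESeq2 called 10 of the 12 higher and 12 of the 12 lower genes. The higher genes that it did not call were Saa1 and Saa2.

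**Figure D2:**
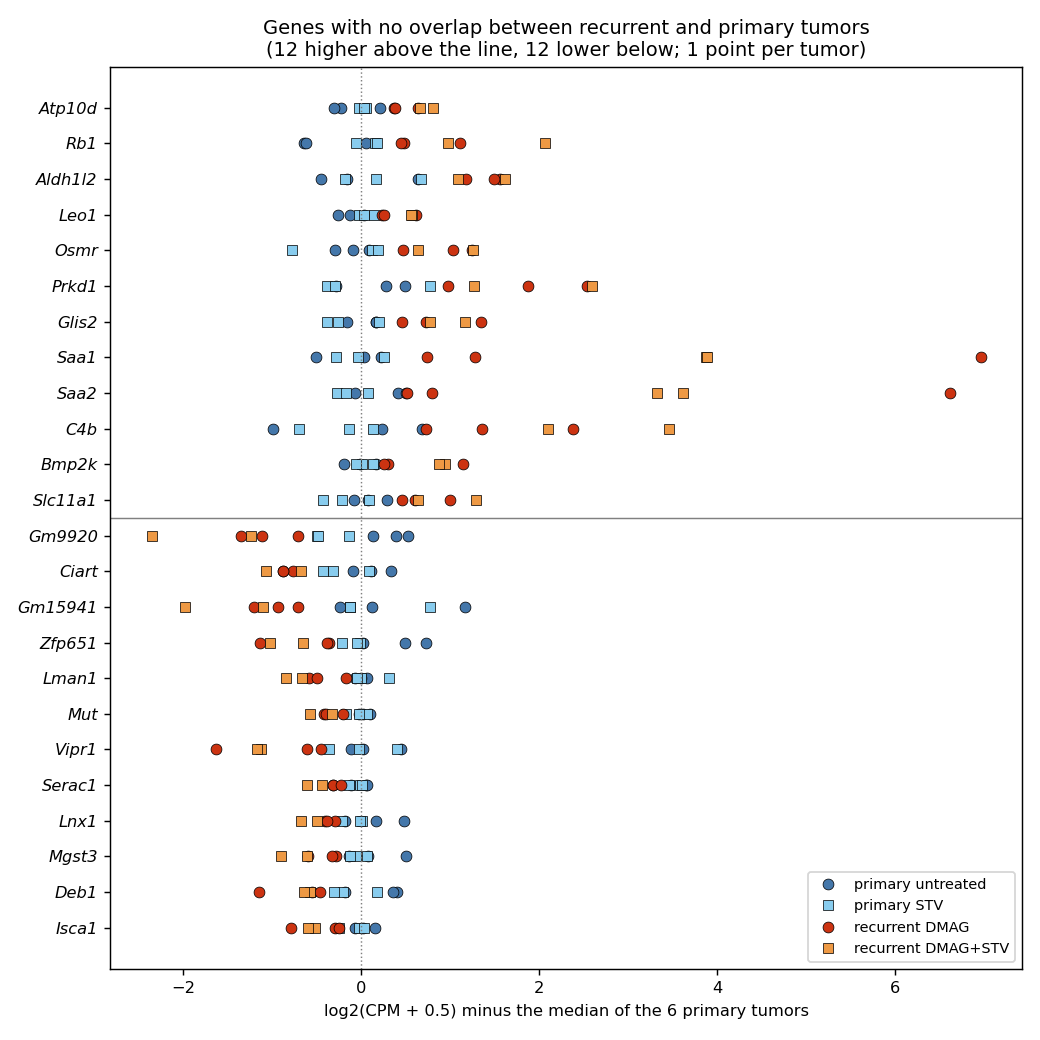
The 24 genes chosen for absence of overlap between recurrent and primary tumors. The horizontal axis is log2(CPM + 0.5) minus the median of the 6 primary tumors, each point is 1 tumor, circles are mice without STV and squares mice with STV. Saa1 and Saa2 spread furthest to the right, led by recurrent 17-DMAG tumor 1 (103 and 64.4 CPM), whereas most other genes differ by under 2 on this axis.

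Genes of the acute phase and of innate defense were among the higher ones. Saa1 and Saa2 (chr7:46740497-46743181 and chr7:46751833-46754313, GRCm38) encode serum amyloid A proteins, acute-phase apolipoproteins that cytokines induce in liver and in epithelium. Saa1 was at 103, 0.882 and 1.51 CPM in the recurrent tumors without STV and at 11.7 and 11.8 CPM with STV. In counts these were 4215, 38, 68, 568 and 545, and the primary tumors held between 4 and 22 counts (0.0849, 0.329 and 0.487 CPM). All recurrent tumors lay above all primary ones, but 2 of the 5 were close to them and 1 lay far above the rest. Its fitted log2 fold change was 6.12 (SE 1.26), and 3.75 without recurrent 17-DMAG tumor 1. Saa2 was at 64.4, 0.650 and 0.444 CPM without STV and at 7.62 and 6.11 CPM with STV. Its primary tumors were at 0.0459, 0.161 and 0.436 CPM, so the lowest recurrent tumor barely cleared the highest primary one. Its log2 fold change was 6.04 (SE 1.25) and 3.70 without recurrent 17-DMAG tumor 1. The windows of 250 bases before and 50 after the start of the 2 genes matched at 94.8% of 251 aligned columns, and reads of such paralogs can be shared or lost in counting.

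The promoter of Saa2 is shown because both genes had their highest values in the same 3 recurrent tumors (RefSeq, GRCm38.p6, chr7:46751583-46751789, plus strand). Capitals mark the letters TTGCNNAAT, searched on both strands as a core of the site bound by C/EBP proteins, and they begin 183 bases before the start. The same 9 letters stand 182 bases before the start of Saa1, and 2.11% of 32851 promoter windows hold a match. A match is a description of letters and not a binding site.
Saa2 promoter: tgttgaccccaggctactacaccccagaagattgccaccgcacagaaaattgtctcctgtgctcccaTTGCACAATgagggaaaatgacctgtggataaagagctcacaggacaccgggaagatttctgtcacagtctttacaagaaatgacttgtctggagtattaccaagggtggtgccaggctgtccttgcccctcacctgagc

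C4b (chr17:34728139-34743902), complement component 4, was at 437, 215 and 139 CPM in recurrent tumors without STV and at 922 and 360 CPM with STV. The primary tumors were at 41.9, 84.0 and 134 CPM. Recurrent 17-DMAG tumor 3 lay just above the highest primary tumor. C4b had a log2 fold change of 2.26 (SE 0.47), with 1.53 among mice without STV and 3.13 among mice with STV. Osmr (chr15:6813568-6874968), the signaling subunit of the oncostatin M receptor, was at 219, 190, 128, 222 and 144 CPM. Its primary tumors were at 53.7, 92.6 and 106 CPM. The log2 fold change of Osmr was 1.06 (SE 0.21), at 1.04 without and 1.08 with STV. Slc11a1, a metal transporter of the phagosome in macrophages, was at 13.2, 9.95, 8.96, 16.3 and 10.2 CPM against 4.63, 6.39 and 7.95 CPM in primary tumors (log2 fold change 0.90, SE 0.20).

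Regulators of growth and transcription made up a further group. Rb1 (chr14:73192858-73325951) encodes the retinoblastoma protein, which holds E2F factors in check before S phase. It was at 206, 133 and 130 CPM in recurrent tumors without STV and at 398 and 188 CPM with STV, against 61.0, 95.2 and 108 CPM in primary tumors. Rb1 differed by a log2 fold change of 1.28 (SE 0.23). Leaving out each tumor in turn gave 1.03 to 1.44. Prkd1, the kinase PKD1 that acts downstream of diacylglycerol, was at 18.7, 11.7, 6.04, 7.47 and 19.6 CPM against 2.04, 2.89 and 5.16 CPM (log2 fold change 1.98, SE 0.39). Glis2, a Kruppel-like zinc finger factor, was at 18.7, 12.1, 9.90, 12.4 and 16.5 CPM against 5.28, 7.12 and 8.20 CPM (1.01, SE 0.20). Bmp2k, a kinase induced by BMP2, was at 93.8, 52.3, 50.8, 81.5 and 78.1 CPM against 37.0, 42.3 and 47.6 CPM (0.75, SE 0.16). In Prkd1, Glis2 and Bmp2k the highest recurrent value was in recurrent 17-DMAG tumor 1 or in recurrent 17-DMAG + STV tumor 2. Leo1, a subunit of the PAF1 complex of transcription elongation, spanned 26.8 to 35.1 CPM in recurrent and 18.8 to 25.04 CPM in primary tumors (0.51, SE 0.10).

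Of the other higher genes, 2 act in metabolism and at membranes. Aldh1l2, the mitochondrial 10-formyltetrahydrofolate dehydrogenase, was at 31.7, 30.3, 24.3, 33.0 and 22.7 CPM against 7.49, 10.5 and 16.9 CPM. The 5 recurrent tumors lay close together, and the log2 fold change was 1.27 (SE 0.23). Atp10d, a phospholipid flippase, had the smallest p of the 12. It was at 41.1, 34.1, 34.2, 46.3 and 41.7 CPM against 21.0, 26.2 and 30.3 CPM (log2 fold change 0.64, SE 0.11).

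Receptors and transport proteins were among the 12 lower genes, with a cluster on chromosome 9. Vipr1 (chr9:121642716-121672954), a receptor for vasoactive intestinal peptide, was at 87.6, 200 and 178 CPM without STV and at 124 and 120 CPM with STV. Its primary tumors were at 212, 272 and 371 CPM, and the log2 fold change was -1.06 (SE 0.22). Recurrent 17-DMAG tumor 2 lay closest to the primary tumors. Lman1, a cargo receptor between endoplasmic reticulum and Golgi, was at 243, 261, 326, 231 and 205 CPM against 349, 367 and 455 CPM (-0.60, SE 0.13). Zfp651, a zinc finger gene on chromosome 9, was at 15.2, 26.3, 26.0, 21.4 and 16.4 CPM against 29.2, 34.0 and 56.6 CPM (-0.91, SE 0.18). Deb1, also on chromosome 9, was at 19.3, 29.4, 31.3, 28.8 and 27.6 CPM against 35.1, 43.6 and 57.3 CPM (-0.74, SE 0.17).

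Vipr1, Deb1 and Zfp651 are close neighbors, all within chr9:121642716-121771742. A wider stretch around them, from Trak1 to Abhd5, was looked at after their values had been seen. Of its 12 tested genes averaging 3 or more in log2 CPM, 11 had a negative fold change, 7 an unadjusted p under 0.05 and 4 no overlap, with a median of -0.27. These counts include the 3 genes themselves, around which the stretch was drawn, so they are a description only. Over all genes, 5.81% were lower at an unadjusted p under 0.05 and 0.747% were lower without overlap. Relative to each gene's median over the 11 tumors, the stretch was at -0.26, -0.12, -0.14, -0.11 and -0.31 in the recurrent tumors. Primary untreated tumor 2 was highest, at 0.51, and the other primary tumors were between 0.00 and 0.18.

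Genes of mitochondria and of detoxification came next among the lower ones. Mut, methylmalonyl-CoA mutase, was at 44.4, 45.1, 51.9, 39.7 and 47.5 CPM against 53, 59.6 and 64.0 CPM (-0.39, SE 0.08). Isca1, which takes part in iron-sulfur cluster assembly, was at 32.8, 46.2, 47.8, 39.7 and 37.5 CPM against 47.8, 56.9 and 63.5 CPM (-0.47, SE 0.11). Its highest recurrent and lowest primary tumor were equal at 3 digits. Serac1, required for phosphatidylglycerol remodeling, spanned 23.8 to 31.1 CPM in recurrent and 33.2 to 38.0 CPM in primary tumors (-0.38, SE 0.08). Mgst3, a microsomal glutathione transferase, spanned 8.11 to 12.8 CPM and 14.1 to 22.4 CPM (-0.65, SE 0.14).

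The remaining lower genes have separate roles. Ciart, a repressor in the circadian clock, was at 4.23, 3.88, 3.88, 3.34 and 4.53 CPM against 5.47 to 9.65 CPM in primary tumors (-0.91, SE 0.17). The hour of collection was not given in the sources used here. Lnx1, a ubiquitin ligase of NUMB, spanned 24.99 to 32.8 CPM in recurrent and 34.5 to 56.5 CPM in primary tumors (-0.54, SE 0.12). Gm9920 was at 3.54, 2.09, 2.55, 2.31 and 0.798 CPM against 4.21, 6.15 and 9.06 CPM (-1.57, SE 0.28). Gm15941 was at 11.5, 14.0, 16.4, 12.4 and 6.52 CPM against 22.8, 27.2 and 61.7 CPM (-1.59, SE 0.31). Both loci are predicted genes, and their recurrent minima were in recurrent 17-DMAG + STV tumor 2.

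The drug's own target pathway was described by fixed genes and by lists. Erbb2, whose value may include reads from the rat cDNA, was at 3903, 8507 and 10864 CPM in recurrent tumors without STV and at 13771 and 8162 CPM with STV. The primary tumors were at 9521, 10838 and 20386 CPM, so the groups overlapped. The log2 fold change of Erbb2 was -0.52 (SE 0.33, adjusted p = 0.505 by edgeR's quasi-likelihood test with Benjamini-Hochberg adjustment), with -1.04 without STV and 0.11 with STV. Of the 13 tested ErbB receptors and ligands, Egf, the ligand of EGFR, was at 4.74, 45.5, 67.5, 23.8 and 20.0 CPM against 58.9, 83.2 and 128 CPM. Its log2 fold change was -1.56 (SE 0.54, adjusted p = 0.306 in edgeR). Nrg1, a ligand of ERBB3 and ERBB4, was at 9.43, 0.603, 0.865, 3.603 and 85.9 CPM against 0.240, 1.12 and 3.23 CPM. Its log2 fold change of 2.96 (SE 1.23, adjusted p = 0.348 in edgeR) lay between 1.27 and 3.72 when each tumor was left out.

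Heat shock genes lay slightly higher. Of 26 tested genes of HSP90, its co-chaperones and the heat shock response, 21 had a positive fold change, and the median was 0.23. At an unadjusted p under 0.05, 7 were higher and 1 lower, beside 7.79% and 5.81% of all genes. The lower one was Hsp90b1, itself an HSP90 gene. The leading member was Hspb1 (chr5:135887919-135889563), the small heat shock protein HSP27 of other species. Hspb1 was at 25.4, 24.8 and 23.1 CPM without STV and at 43.2 and 61.6 CPM with STV. Its primary tumors were at 13.5, 16.6 and 23.7 CPM, and the only overlap was between recurrent 17-DMAG tumor 3 and the highest primary tumor. The log2 fold change was 1.03 (SE 0.16, adjusted p = 0.302 in edgeR). DESeq2 called Hspb1 at an adjusted p of 2.35e-05. Hsp90ab1, the constitutive HSP90, was at 1485, 1189, 1283, 1663 and 1656 CPM against 1075, 1184 and 1206 CPM (0.34, SE 0.10). Dnaja1, an HSP40 co-chaperone, was at 134, 96.1, 98.3, 120 and 137 CPM against 54.2, 91.0 and 119 CPM (0.48, SE 0.15). The inducible HSP70 genes overlapped between groups. Hspa1a was at 17.5, 12.7, 13.2, 20.7 and 9.08 CPM against 8.09, 11.2 and 14.6 CPM (log2 fold change 0.39, SE 0.23, adjusted p = 0.470 in edgeR). Hspa1b was at 47.1, 30.8, 28.1, 43.9 and 24.2 CPM against 20.2, 28.0 and 32.9 CPM (0.39, SE 0.21, adjusted p = 0.422). These 2 paralogs are nearly identical, so reads can pass from one to the other.

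The promoter of Hspb1 is shown as the leading member of the HSP90 and heat shock list (RefSeq, GRCm38.p6, chr5:135887669-135887918, plus strand). Capitals mark GAANNTTC, a pair of facing heat shock half-sites that reads the same on both strands. It occurs 117 and 97 bases before the start, and 6.69% of 32851 promoter windows hold it.
Hspb1 promoter: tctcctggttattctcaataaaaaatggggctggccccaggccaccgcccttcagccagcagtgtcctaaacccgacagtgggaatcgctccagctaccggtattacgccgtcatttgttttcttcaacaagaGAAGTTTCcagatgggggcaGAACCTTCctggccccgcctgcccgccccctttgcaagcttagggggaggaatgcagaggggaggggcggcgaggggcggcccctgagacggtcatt

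Nqo1 (chr8:107388225-107403205), the reductase of 17-DMAG, was at 51.0, 29.0 and 19.1 CPM in recurrent tumors without STV and at 46.9 and 17.2 CPM with STV. The primary tumors were at 1.68, 10.8 and 17.7 CPM. All recurrent tumors lay above the primary median, and 1 of them, recurrent 17-DMAG + STV tumor 2, lay below the highest primary tumor. The log2 fold change was 1.75 (SE 0.50, adjusted p = 0.302 in edgeR), and 1.46 to 2.03 with each tumor left out. Of the 19 tested genes of NRF2 redox defense and 17-DMAG handling, 4 were higher and 0 lower at an unadjusted p under 0.05. Over all genes these shares were 7.79% and 5.81%. The list median was 0.12. Slc7a11, the cystine importer, was at 10.9, 8.33, 5.24, 12.8 and 4.90 CPM against 1.68, 3.25 and 5.78 CPM (1.33, SE 0.37). Gsr, glutathione reductase, spanned 33.4 to 45.8 CPM in recurrent and 27.3 to 32.1 CPM in primary tumors without overlap (0.30, SE 0.10).

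Among 9 drug efflux transporters, 3 were higher at an unadjusted p under 0.05 (7.79% of all genes were). Without recurrent 17-DMAG tumor 1, 0 were higher at that p. Abcb1a was at 5.57, 1.53, 1.66, 3.64 and 2.93 CPM against 1.38, 1.75 and 2.01 CPM (log2 fold change 0.84, SE 0.34, adjusted p = 0.341 in edgeR), and was at 0.45 without that tumor. Abcb1b was at 3.74, 1.28, 2.73, 1.96 and 9.04 CPM against 1.48, 2.63 and 2.99 CPM (0.63, SE 0.47, adjusted p = 0.569), and -0.044 without recurrent 17-DMAG + STV tumor 2. Both P-glycoprotein genes overlapped between groups. Abcc3, a pump of organic anions, was at 20.3, 17.0, 10.3, 31.3 and 16.7 CPM against 6.82, 12.9 and 14.995 CPM (0.70, SE 0.30, adjusted p = 0.351). Abcc5, a pump of cyclic nucleotides, was at 21.6, 9.03, 10.6, 10.4 and 33.5 CPM against 7.32, 9.96 and 12.3 CPM (0.77, SE 0.33, adjusted p = 0.360), or 0.34 without recurrent 17-DMAG + STV tumor 2.

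**Figure D3:**
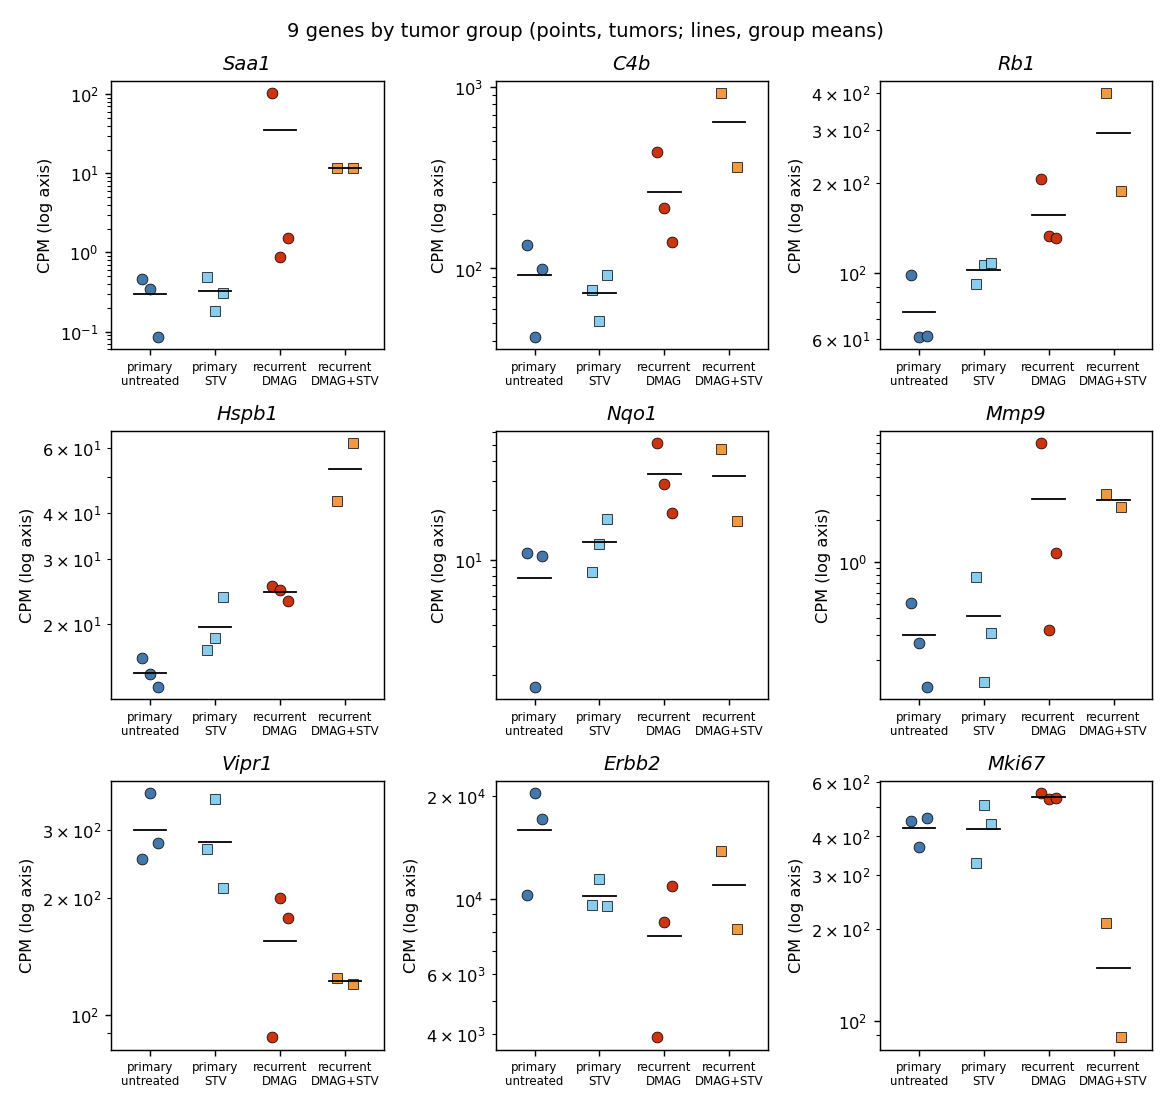
CPM of 9 genes in the 4 tumor groups. Each panel has CPM on a log axis, points are tumors and horizontal lines are group means; the axes differ between panels. Saa1, C4b and Rb1 have no overlap between recurrent and primary tumors by choice, Hspb1 and Nqo1 overlap by 1 recurrent tumor each, and Mki67 is at 530 to 552 CPM in recurrent tumors without STV and at 88.7 and 209 CPM in those with STV.

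The median fold change of proliferation genes differed in sign with and without STV. Mki67, which encodes the antigen Ki-67 of cycling cells, was at 552, 530 and 532 CPM in recurrent tumors without STV and at 209 and 88.7 CPM with STV. The primary tumors were at 327, 444 and 506 CPM. The recurrent tumors without STV lay above all primary tumors and those with STV below all of them. The pooled log2 fold change of -0.44 (SE 0.37, adjusted p = 0.608 in edgeR) lay between the values of 0.34 without and -1.51 with STV, and the interaction had an unadjusted p of 0.00169 and an adjusted p of 0.435 in edgeR. Of 30 proliferation genes, 7 had a positive and 23 a negative fold change in the pooled comparison, and 0 an unadjusted p under 0.05. The median was -0.14, and 0.49 and -1.06 in the tumors without and with STV. Without the recurrent tumor at 88.7 CPM of Mki67, the pooled median turned positive, at 0.19. The mean log2 CPM of the list was 3.78 in that tumor and 4.72 in the other recurrent tumor with STV. Both lay below the primary range of 4.88 to 5.40, and the recurrent tumors without STV lay above it, at 5.44 to 5.66. The interaction of recurrence and STV was called for 0 of 16870 genes in edgeR, and 1322 (7.84%) had p under 0.05 before adjustment.

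Genes of inflammation driven by NF-kB and TNF were the 1 program list whose mean level did not overlap between groups. Of 25 tested, 23 had a positive fold change, and the median was 0.50. At an unadjusted p under 0.05, 12 were higher and 1 lower, beside 7.79% and 5.81% of all genes. The lower one was Sod2, the mitochondrial superoxide dismutase. The mean log2 CPM of the list was 2.74 to 3.73 in recurrent and 2.25 to 2.52 in primary tumors. Without recurrent 17-DMAG tumor 1, 7 were higher and 1 lower and the median was 0.44. Cxcl1, a chemokine that draws neutrophils, was at 2.44, 4.06, 2.09, 3.11 and 3.39 CPM against 1.06, 1.48 and 1.88 CPM without overlap (1.01, SE 0.24). Bcl3, a nuclear partner of NF-kB, was at 43.4, 18.3, 13.1, 24.2 and 18.3 CPM against 4.72, 7.35 and 17.2 CPM (1.47, SE 0.35). Cxcl5 held 30, 4, 0, 22 and 30 counts in the recurrent tumors against 0 to 2 counts in the primary ones, too few for a fold change that does not depend on the prior count. It passed the filter through the recurrent tumors alone and is 1 of the 12 higher genes.

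Interferon and DNA sensing genes made up 2 further lists. Of 25 genes of the type I interferon response, 20 had a positive fold change but 1 had an unadjusted p under 0.05. This was Oas2, an antiviral oligoadenylate synthetase, at 27.5, 6.85, 18.5, 54.7 and 6.34 CPM against 2.96, 6.85 and 14.4 CPM (1.505, SE 0.59, adjusted p = 0.334 in edgeR). The list median of 0.27 lay between -0.059 and 0.54 when each tumor was left out. Of 17 genes of cytosolic DNA sensing and retroelement control, 3 were higher at an unadjusted p under 0.05 (7.79% of all genes were), 1 without recurrent 17-DMAG tumor 1, and the median was 0.11. The 3 were Apobec3, a cytidine deaminase that restricts retroviruses (0.36, SE 0.13), Mov10, an RNA helicase that restricts retroelements (0.33, SE 0.13), and Trim28, a corepressor of retroelements (0.39, SE 0.17).

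**Figure D4:**
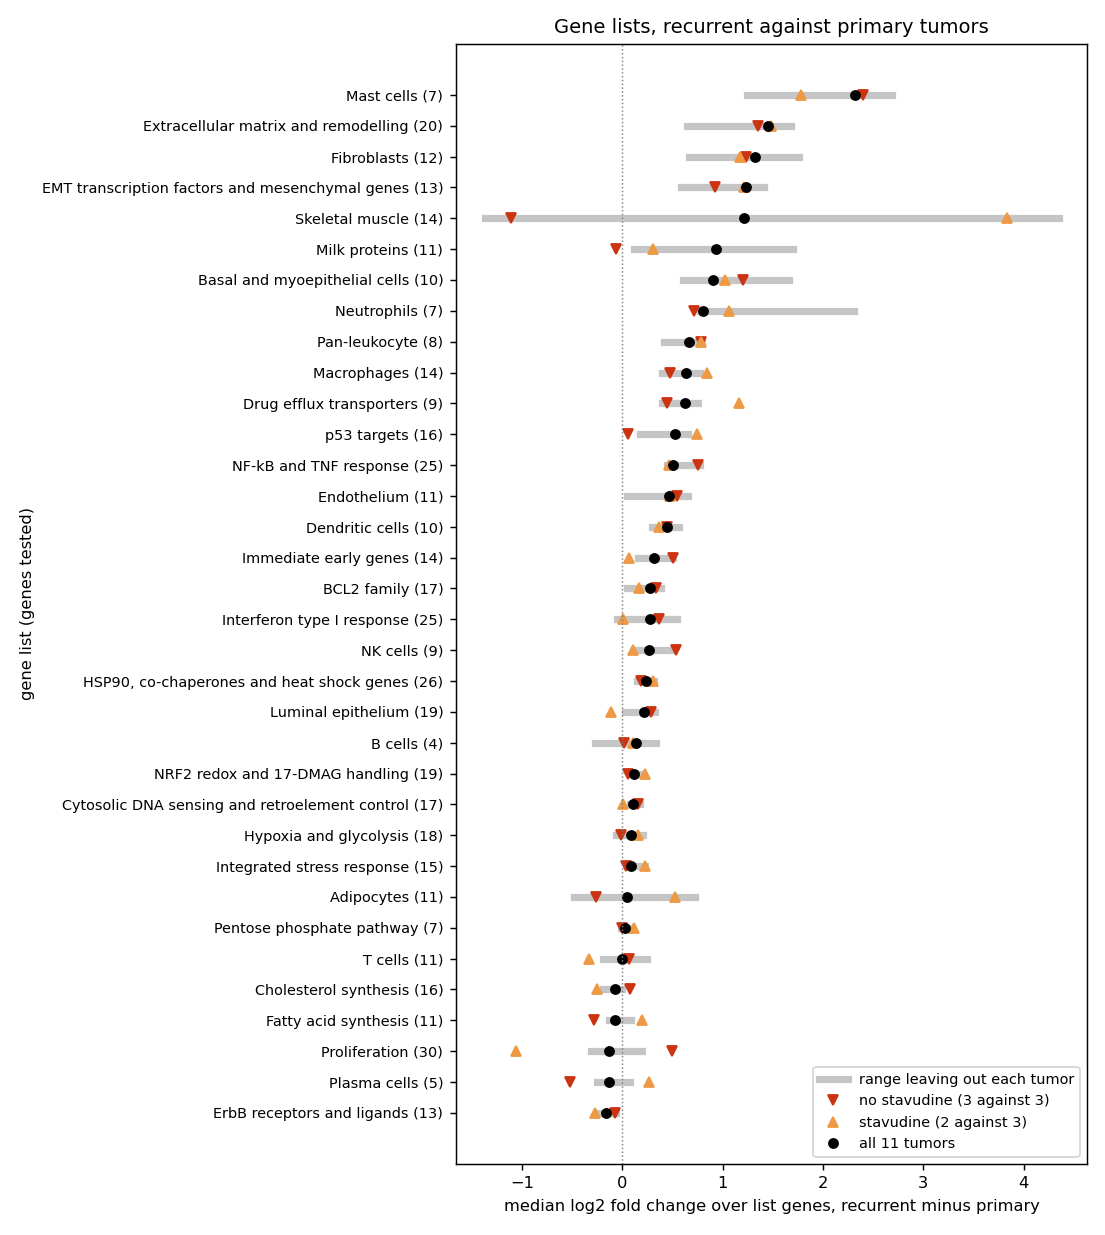
Median log2 fold change, recurrent against primary tumors, of 34 gene lists. The vertical axis names each list with its number of genes tested, black circles use all 11 tumors, triangles use the tumors without STV (pointing down) or with STV (pointing up), and grey bars span the medians with each tumor left out in turn. Matrix, fibroblast and mesenchymal lists lie at 1.45, 1.32 and 1.23, skeletal muscle spans -1.37 to 4.35 when single tumors are left out, and proliferation lies at 0.49 without and -1.06 with STV.

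Connective tissue genes had a higher share at an unadjusted p under 0.05 than all genes tested, and most of these genes needed 1 tumor. Of 20 genes of extracellular matrix and remodeling, 19 had a positive fold change. At an unadjusted p under 0.05, 13 were higher and 0 lower (7.79% and 5.81% of all genes), with a median of 1.45. Without recurrent 17-DMAG tumor 1 these were 3 genes and a median of 0.65. Col1a1, a chain of type I collagen, was at 1708, 109, 289, 484 and 595 CPM against 91.3, 125 and 280 CPM. Recurrent 17-DMAG tumor 1 was far above the others and recurrent 17-DMAG tumor 2 lay below the primary median. Col1a1 differed by 2.03 on the log2 scale (SE 0.58, adjusted p = 0.302 in edgeR), down to 1.24 with 1 tumor left out. Mmp9, a gelatinase, was at 6.99, 0.325, 1.15, 3.05 and 2.46 CPM against 0.127, 0.285 and 0.779 CPM (3.01, SE 0.76).

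Mesenchymal and fibroblast genes were described in the same way, beside 7.79% of all genes higher at an unadjusted p under 0.05. All 13 genes of epithelial-mesenchymal transition had a positive fold change, 6 at an unadjusted p under 0.05, with 1 of 12 tested without recurrent 17-DMAG tumor 1 and 1 of 13 without recurrent 17-DMAG + STV tumor 2. Snai1, a zinc finger factor of this transition, was at 11.9, 1.44, 1.24, 2.18 and 5.09 CPM against 0.467, 0.939 and 1.65 CPM (2.10, SE 0.64, and 1.21 without recurrent 17-DMAG tumor 1). Twist1, another factor of this kind, differed by 1.55 on the log2 scale (SE 0.57, adjusted p = 0.324 in edgeR), and by 0.89 without the same tumor. Of 12 fibroblast markers, 6 were higher at an unadjusted p under 0.05, with 2 left without recurrent 17-DMAG tumor 1 and 6 without recurrent 17-DMAG + STV tumor 2. Thy1, a surface protein of fibroblasts and T cells, was at 28.9, 8.10, 10.7, 14.0 and 16.2 CPM against 3.35, 7.92 and 9.74 CPM (1.13, SE 0.38, adjusted p = 0.306).

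The mean level of leukocyte genes was above that of every primary tumor in each recurrent tumor, although only 2 of the 8 single genes were without overlap. Of 8 genes common to leukocytes, 8 had a positive fold change and 7 an unadjusted p under 0.05 (7.79% of all genes were higher at that p). Their median was 0.67, and their mean log2 CPM was 3.75 to 5.04 in recurrent against 3.43 to 3.72 in primary tumors. Without recurrent 17-DMAG tumor 1, 5 of the 8 had an unadjusted p under 0.05 and the median was 0.41. Without primary untreated tumor 2 these were 4 of 8 and 0.63, and with both of these tumors left out 3 of 8 and 0.44. Ptprc, which encodes CD45, was at 62.0, 23.9, 24.1, 34.8 and 31.2 CPM against 19.0, 21.7 and 26.8 CPM (0.66, SE 0.25, adjusted p = 0.326 in edgeR). Laptm5, a lysosomal protein of hematopoietic cells, was at 66.2, 24.9, 27.6, 43.0 and 35.7 CPM against 20.1, 23.0 and 24.3 CPM without overlap (0.80, SE 0.23). Coro1a, an actin regulator of leukocytes, was at 23.9, 10.0, 11.4, 17.1 and 10.3 CPM against 8.28, 9.42 and 9.83 CPM without overlap (0.65, SE 0.23, adjusted p = 0.315).

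By cell type the medians of the myeloid lists stood higher than those of the lymphoid ones, a difference that was not tested. The mean levels of the macrophage, neutrophil and dendritic cell lists overlapped between groups. Recurrent 17-DMAG tumors 2 and 3 lay within the primary range in each of these lists. Of 14 macrophage markers, 9 were higher at an unadjusted p under 0.05 (7.79% of all genes were), with a median of 0.63. Without recurrent 17-DMAG tumor 1, 4 of them were higher. The neutrophil list had 4 of 7 tested markers higher and 2 with a negative fold change, with a median of 0.81. Without recurrent 17-DMAG tumor 1, 2 of 6 tested were higher. Of its 12 markers, S100a9, Ly6g, Cxcr2, Mpo and Elane were not tested. A marker near the floor could pass the filter through the recurrent tumors alone, so the count and median of this list can lean upward. In the dendritic cell list 2 of 10 were higher and 3 had a negative fold change, with a median of 0.45. C1qc, a chain of complement C1q made by macrophages, was at 94.1, 31.4, 39.6, 56.2 and 47.2 CPM against 25.3, 31.2 and 32.9 CPM (0.81, SE 0.24). S100a8, a subunit of the neutrophil protein calprotectin, held 80, 14, 10, 82 and 222 counts in the recurrent and 0 to 10 counts in the primary tumors, without overlap in CPM. Itgax, the integrin CD11c of dendritic cells and macrophages, was at 24.2, 11.6, 10.5, 25.5 and 21.9 CPM against 5.60, 8.82 and 12.6 CPM (1.06, SE 0.26). None of 11 tested T cell markers, of 4 tested B cell markers or of 9 NK cell markers had an unadjusted p under 0.05, with medians of 0.00, 0.14 and 0.27. Of 5 tested plasma cell markers, 1 was higher, Sdc1, and the median was -0.14.

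Epithelial markers differed in both directions. Of 19 luminal genes, 4 were higher and 2 lower at an unadjusted p under 0.05 (7.79% and 5.81% of all genes), with a median of 0.21. The higher ones included Cdh1, the adhesion protein E-cadherin (0.25, SE 0.11, adjusted p = 0.360 in edgeR), and Cldn7, a tight junction claudin (0.44, SE 0.17, adjusted p = 0.328). Muc1, an apical mucin, was at 27.3, 20.0, 19.8, 31.3 and 21.1 CPM against 8.64, 15.4 and 16.3 CPM without overlap (0.75, SE 0.18). Epcam, the epithelial adhesion molecule, was at 923, 1180, 1150, 783 and 426 CPM against 1170, 1190 and 1321 CPM (-0.54, SE 0.20, adjusted p = 0.323 in edgeR). All recurrent tumors but recurrent 17-DMAG tumor 2 lay below the lowest primary tumor. Of 10 basal genes, 10 had a positive fold change and 4 an unadjusted p under 0.05. Trp63, a factor of basal cells, was at 24.7, 13.3, 9.12, 7.06 and 91.5 CPM against 2.32, 5.33 and 9.04 CPM (2.14, SE 0.66), and its fold change was 1.01 without recurrent 17-DMAG + STV tumor 2. Acta2, smooth muscle actin of myoepithelium and myofibroblasts, was at 95.8, 16.0, 32.8, 25.9 and 157 CPM against 8.29, 19.2 and 20.1 CPM (2.002, SE 0.56, adjusted p = 0.302), or 1.30 without the same tumor. Recurrent 17-DMAG tumor 2 lay within the primary range for Acta2.

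Skeletal muscle genes, markers of tissue beside the tumor, had 0 of 14 at an unadjusted p under 0.05, and their median was -1.12 without and 3.84 with STV. High shares of muscle counts were found in primary untreated tumor 1 (0.450%), recurrent 17-DMAG tumor 3 (0.160%) and recurrent 17-DMAG + STV tumor 2 (0.601%). Milk protein genes and adipocyte markers had 0 of 11 each at an unadjusted p under 0.05. Mast cell markers had levels near the floor in primary tumors and could pass the filter through the recurrent tumors alone. Of 7 tested, 2 were higher (7.79% of all genes were), with a median of 2.32. These were 0 of 7 and 1.25 without recurrent 17-DMAG tumor 1, and 0 of 8 and 1.78 without recurrent 17-DMAG + STV tumor 2. Mcpt4, a mast cell protease, was at 6.89, 0.278, 1.82, 0.288 and 4.92 CPM against 0, 0.544 and 1.27 CPM (2.32, SE 1.04, adjusted p = 0.365 in edgeR).

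Lists of survival, stress and early response genes were read beside the 7.79% of all genes higher and 5.81% lower at an unadjusted p under 0.05. Of 17 genes of the BCL2 family, 5 were higher and 1 lower, and without recurrent 17-DMAG tumor 1 or primary untreated tumor 2 the higher ones numbered 2 and 1. The lower one was Bcl2l2, the survival protein BCL-W, at 51.4, 68.5, 77.0, 72.8 and 77.0 CPM against 77.0, 93.0 and 104 CPM, without overlap (-0.42, SE 0.12). Of 16 p53 targets, 2 were higher, Sesn2 (0.87, SE 0.32) and Bax (0.58, SE 0.24), and 0 were without recurrent 17-DMAG + STV tumor 2 and 1 without recurrent 17-DMAG tumor 1. Sesn2 was at 0.42 without the former tumor and Bax at 0.35 without the latter. Of 15 genes of the integrated stress response, 5 were higher and 1 lower, Trib3, and the list median was 0.085. Cebpb, a factor that binds many acute-phase promoters, was at 173, 141, 134, 161 and 152 CPM against 102, 112 and 137 CPM (0.38, SE 0.10), and Psat1, an enzyme of serine synthesis, had a log2 fold change of 1.10 (SE 0.30), or 0.72 without recurrent 17-DMAG + STV tumor 2. Among 14 immediate early genes, Egr3 (1.92, SE 0.51) and Fos (1.09, SE 0.39) were higher and Nr4a1 (-0.55, SE 0.22) lower.

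Of 18 genes of hypoxia and glycolysis, 2 were higher at an unadjusted p under 0.05 (7.79% of all genes), and 0 without recurrent 17-DMAG tumor 1. They were Adm, the vasodilator adrenomedullin (1.87, SE 0.64), and Ndrg1, a gene induced by hypoxia (1.73, SE 0.61), at 0.99 and 0.81 without that tumor. The list median was 0.090 with it and -0.059 without it. Of 7 genes of the pentose phosphate pathway, 2 were higher. Tkt, transketolase, was at 180, 167 and 191 CPM without STV and at 355 and 453 CPM with STV, against 140, 163 and 201 CPM in primary tumors. Its log2 fold change was 1.38 with and 0.00 without STV, with an unadjusted interaction p of 6.24e-05 and an adjusted p of 0.435 in edgeR. Endothelial markers had 2 of 11 higher, Vwf (1.505, SE 0.59) and Eng (0.83, SE 0.35), and 0 of 11 without recurrent 17-DMAG tumor 1, without primary untreated tumor 2 or without recurrent 17-DMAG + STV tumor 2. Their median of 0.46 was 0.042 without recurrent 17-DMAG tumor 1. Among 16 genes of cholesterol synthesis and 11 of fatty acid synthesis, 0 had an unadjusted p under 0.05.

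Across chromosomes, genes of chromosome 4 had a median log2 fold change of 0.12 between recurrent and primary tumors. The other chromosomes lay between -0.10, on chromosome 9, and 0.04. Without primary untreated tumor 2 the median of chromosome 4 was -0.01, and without recurrent 17-DMAG tumor 1 it was 0.14. Of the genes given above, Dnaja1, Sesn2, Laptm5 and C1qc are on chromosome 4. With each tumor left out their log2 fold changes ran from 0.37 to 0.57, 0.42 to 1.03, 0.53 to 0.94 and 0.52 to 0.97. In primary untreated tumor 2 the genes of chromosome 4 were at -0.81 before and at -0.77 after position 40000000, so the whole chromosome was displaced, and chromosome 15 after position 95000000 was at -0.49.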

How the data were processed

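The authors deposited raw counts per gene and library. Per the study's methods and the submitters' processing notes, reads of a stranded total RNA kit were demultiplexed (bcl2fastq 2.20), aligned to mm10/GRCm38 with STAR and counted with featureCounts on the UCSC annotation; Subread 1.6.2 is also named. The strand setting and the handling of multiply mapped reads and read pairs were not given in the sources used here. No columns of other samples were used.

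Counts of 11 tumors were tested in R 4.3.3 with edgeR 4.0.16 (filterByExpr on 4 groups, TMM, robust quasi-likelihood test, terms for STV and recurrence, two-sided, Benjamini-Hochberg over 16870 of 24421 genes, threshold 0.05). A fit with 1 mean per group gave within-arm values and the interaction. Alternatives used DESeq2 1.42.0, limma 3.58.1, other filters and samples. Scripts were tested on simulated data. Log2 CPM had a prior count of 2.

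Named genes were the 12 higher and 12 lower genes without overlap, at mean log2 CPM of at least 1, with equal sign in both arms and smallest p; 9 fixed genes; and up to 3 members per list. The comparison, the lists and these rules were chosen with earlier results of these data known. The 34 lists hold 484 genes, of which 463 were tested. Positions and promoters are from RefSeq (GRCm38.p6); 7 of 12 higher and 7 of 12 lower genes had a promoter. No replicate pair differed by less than sampling noise. Replicate numbers did not pair samples (15 pairs, correlation -0.27 to 0.24, 2 over 0.1).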

Additional observations from a re-analysis of the deposited data

Results flagged for a closer look

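Of 190 groups of recurrent or primary tumors tested over 95 genes, 8 had 1 tumor further from its neighbor than Dixon's limit allows on the log2 CPM scale; chance flags about 1 in 20 groups, and 8 is 4.21%. The gap is given as a share of the group's whole range. In primary tumors, Lman1 was highest in primary STV tumor 2 (455 CPM, gap 0.655), Mgst3 was highest in primary untreated tumor 3 (22.4 CPM, 0.671), Nqo1 was lowest in primary untreated tumor 2 (1.68 CPM, 0.685), Muc1 was lowest in primary untreated tumor 3 (8.64 CPM, 0.831), and Bax was highest in primary untreated tumor 2 (15.9 CPM, 0.671). In recurrent tumors, Deb1 (19.3 CPM, 0.744) and Bcl2l2 (51.4 CPM, 0.712) were lowest in recurrent 17-DMAG tumor 1, and Vwf was lowest in recurrent 17-DMAG tumor 2 (3.18 CPM, 0.723).

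The interaction of recurrence and STV had an unadjusted p under 0.05 in edgeR for 8 of these 95 genes (8.42%), and for 7.84% of all genes tested. The choice of the 95 genes shaped their share, so the shares cannot be compared. Genes chosen for absence of overlap had to have the same sign with and without STV. Chil1 and Lrg1 were added after their values had been seen. The fold change with STV minus that without, on the log2 scale, was 3.86 for Chil1, a chitinase-like protein of epithelium and macrophages, and 3.16 for Lrg1, an acute-phase glycoprotein. It was 1.38 for Tkt, 1.09 for Mylk, the kinase of myosin light chain, and 0.69 for Hspb1. It was -1.85 for Mki67, -1.21 for H2-Ab1, a chain of MHC class II, and -0.80 for Epcam. None of the 8 passed adjustment over all genes in edgeR, and the mice with STV gave only 2 recurrent tumors.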

How the results depend on the processing

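No gene was called under size factors by relative log expression, other filters, limma voom with or without quality weights, all 13 libraries, no STV term, group means, removal of muscle, milk and adipocyte genes, or any single tumor left out; nor with both outlying tumors left out or counts halved, which were chosen after seeing the data. DESeq2 called 367 genes and the tumors with STV alone 2. For the interaction DESeq2 called 189 and leaving out 1 tumor gave 0 to 77 (77 without recurrent 17-DMAG + STV tumor 1, 1 without recurrent 17-DMAG tumor 1); the cause was not tested. Genes at an unadjusted p under 0.05 numbered 1075 in tumors without STV alone, 2341 in those with STV alone, and 1478 to 2706 with each tumor left out (1478 without primary untreated tumor 3, 1487 without recurrent 17-DMAG tumor 1, 2706 without recurrent 17-DMAG tumor 2). With the replicate block, no gene was called and the count before adjustment was 1755; the numbers do not pair the samples. The sign turned for Erbb2 with STV alone (0.10), for Mki67 without STV alone (0.34), and for Abcb1b without STV alone (-0.067) and without recurrent 17-DMAG + STV tumor 2 (-0.044, in a range to 0.88). Over 95 genes the other settings kept the sign, but since no gene was called at first, staying uncalled says nothing of stability. Sizes moved with the arm: Tkt ran from 0.00 to 1.37 and Chil1 from 0.68 to 4.52. List medians moved by more than the spread of tumors in 21 of their settings and by less in 859. Depth limits genes near the floor, such as Saa1, S100a8 and Cxcl5 in primary tumors.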

Other observations

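A few genes outside the rule were singled out after their values had been seen. Lurap1l had the smallest p of all genes, at 32.8, 30.2, 29.6, 49.6 and 55.8 CPM in recurrent tumors against 18.3, 25.8 and 32.5 CPM (lowest, median and highest) in primary tumors, a log2 difference of 0.67 (SE 0.09, adjusted p = 0.301 in edgeR). Its ranges overlapped. Lrg1 was at 49.5, 13.1 and 12.9 CPM without STV and at 271 and 81.1 CPM with STV, against 5.01, 8.39 and 10.0 CPM, without overlap. Its log2 fold change was 3.02 (SE 0.71), with 1.55 without and 4.71 with STV. Chil1 was at 632, 242, 169, 2971 and 3529 CPM against 91.0, 165 and 279 CPM, and its log2 fold change was 0.68 without and 4.54 with STV. Angpt1, a ligand of the endothelial receptor TIE2, was at 49.9, 6.59, 3.62, 45.3 and 64.1 CPM against 1.52, 2.67 and 5.16 CPM (3.38, SE 0.65). Recurrent 17-DMAG tumor 3 lay within the primary range for Angpt1, and the other recurrent tumors lay above it.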
